A study of Mus musculus with 11 samples.

Results

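Matrix metalloproteinases (MMPs) and their tissue inhibitors (TIMPs) were followed through the livers of mice without Mdr2, with and without interleukin 6. The 10 genes described were chosen by symbol, with earlier results of these data known. These were 7 metalloproteinases, Mmp2, Mmp7, Mmp8, Mmp9, Mmp12, Mmp13 and Mmp14, and 3 inhibitors, Timp1, Timp2 and Timp3. They are 10 of the 19938 genes tested. Each had 1 probe set on the array that was annotated to its symbol alone, so no choice between probe sets arose.

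Total RNA of male mouse liver was measured on Affymetrix arrays at 14 months of age in 3 genotypes. The groups were tumour-free tissue of Mdr2-KO/IL6-KO mice, which lack both genes (n = 4 arrays), tumour-free tissue of Mdr2-KO mice (n = 4), and liver of wild type C57BL/6 mice (n = 3). Both knockout groups share the loss of Mdr2, the canalicular phospholipid transporter encoded by Abcb4. The labels give a strain for the wild type only, and the numbering of the sample titles differs between wild type and knockouts, so strain or batch cannot be told apart from the effect of the knockouts. Values are log2 levels from RMA, a background-corrected and between-array normalized summary of each probe set, and a change of 1 is a doubling of signal. Changes carry the SE of the fit.

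MMPs are zinc-dependent proteases that are made as inactive proenzymes and, once activated, cleave collagens, elastin and other matrix proteins. TIMPs bind the active site of MMPs and block it. In chronic bile duct injury hepatic stellate cells and portal fibroblasts become myofibroblasts, which lay down collagen and make TIMPs, while macrophages and other cells supply proteases that cut the scar. The balance between the families is part of how liver fibrosis builds up and resolves.

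The promoter windows of 4 of these genes are shown because 3 of them lie in one chromosomal cluster and carry a match to the AP-1 site, a regulatory motif long known from metalloproteinase genes, and the fourth belongs to an inhibitor whose RNA was higher in the same livers. The sequences are from RefSeq (GRCm38.p6), each running from 250 bases before to 50 bases after an annotated start, on the strand of the gene, which is the plus strand for all 4. They are chr9:7347124-7347423 for Mmp12, the second of its 2 annotated starts, chr9:7272264-7272563 for Mmp13, chr9:7691840-7692139 for Mmp7, and chrX:20869916-20870215 for Timp1. Capitals mark the match to TGANTCA.
Mmp12: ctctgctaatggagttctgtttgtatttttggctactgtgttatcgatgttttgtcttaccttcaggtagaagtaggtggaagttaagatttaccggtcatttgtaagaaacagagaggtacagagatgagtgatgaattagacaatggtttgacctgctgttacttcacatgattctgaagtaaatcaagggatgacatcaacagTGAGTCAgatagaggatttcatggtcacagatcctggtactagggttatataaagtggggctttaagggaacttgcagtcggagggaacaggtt
Mmp13: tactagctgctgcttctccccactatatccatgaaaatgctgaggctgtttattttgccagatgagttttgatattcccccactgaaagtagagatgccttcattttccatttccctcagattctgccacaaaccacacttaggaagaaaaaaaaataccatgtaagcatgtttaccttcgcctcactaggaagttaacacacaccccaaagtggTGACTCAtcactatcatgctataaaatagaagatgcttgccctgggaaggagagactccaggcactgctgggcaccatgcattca
Mmp7: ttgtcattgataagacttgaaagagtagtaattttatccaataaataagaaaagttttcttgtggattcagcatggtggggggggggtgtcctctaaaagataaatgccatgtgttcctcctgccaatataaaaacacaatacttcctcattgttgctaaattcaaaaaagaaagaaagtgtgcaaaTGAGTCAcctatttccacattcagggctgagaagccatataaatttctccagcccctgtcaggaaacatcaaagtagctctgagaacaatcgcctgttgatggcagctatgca
Timp1: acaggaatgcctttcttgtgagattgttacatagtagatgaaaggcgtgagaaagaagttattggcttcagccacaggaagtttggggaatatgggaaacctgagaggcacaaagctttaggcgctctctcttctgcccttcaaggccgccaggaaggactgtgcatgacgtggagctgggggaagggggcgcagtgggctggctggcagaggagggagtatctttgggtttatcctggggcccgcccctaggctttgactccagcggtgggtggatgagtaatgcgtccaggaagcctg

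The AP-1 match TGANTCA reads the same on both strands. It began at base -44 from the start in the Mmp12 window, -35 in Mmp13 and -63 in Mmp7. Windows were found for 8 of the 10 genes, and these 3 were the ones with a match; the first Mmp12 window, the second Mmp7 window and those of Mmp8, Mmp14, Timp1, Timp2 and Timp3 had none. Among all 32817 windows, 7.81% hold this motif. TATAAA, the letters of the TATA box, occurred on either strand in the same 3 windows and that of Mmp8, against 13.6% of all windows. These matches began at base -123 and -26 in Mmp7, -16 in Mmp13 and -3 in Mmp8, there on the minus strand. In Mmp12 the match began at base 5, after the annotated start. The GC box GGGCGG occurred on either strand in those of Mmp14, Timp1, Timp2 and Timp3, against 35.6% of all. The STAT site TTCNNNGAA, searched because IL-6 signals through STAT3, was in none of the 10 windows and in 8.29% of all. No match overlapped another motif's match in these windows. A match in letters is a description of the window and does not show that a factor binds there.

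Of the 10 genes, 6 rose in both knockouts, and they were the same genes in each: Mmp2, Mmp7, Mmp12, Timp1, Timp2 and Timp3. Against wild type the rises lay between 1.74-fold and 4.24-fold in Mdr2-KO/IL6-KO livers and between 1.66-fold and 3.06-fold in Mdr2-KO livers, with no gene of the 10 called lower. Calls rest on a limma adjusted p under 0.05, with adjustment over all 19938 genes. Among all genes 4.19% were called in Mdr2-KO/IL6-KO, 2.91% higher and 1.28% lower. In Mdr2-KO 1.26% were called, 0.948% higher and 0.316% lower. The median log2 change of the 10 genes was 0.83 and 0.75 in these comparisons, against 0.00 and -0.01 for all genes. Both comparisons use the same 3 wild-type arrays and are not independent of each other. In each knockout group taken alone, 7 of the 10 genes had every array above all 3 wild-type arrays, and they were the same 7 genes. The shares over all genes that follow are also for each knockout group alone. The share for all 8 knockout arrays together was not computed. Over all genes the arrays did not overlap for 16.3% in Mdr2-KO/IL6-KO (9.85% higher, 6.44% lower) and for 9.13% in Mdr2-KO (5.49% higher, 3.64% lower). In whole tissue, more cells of a type and more RNA per cell cannot be told apart.

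**Figure D1:**
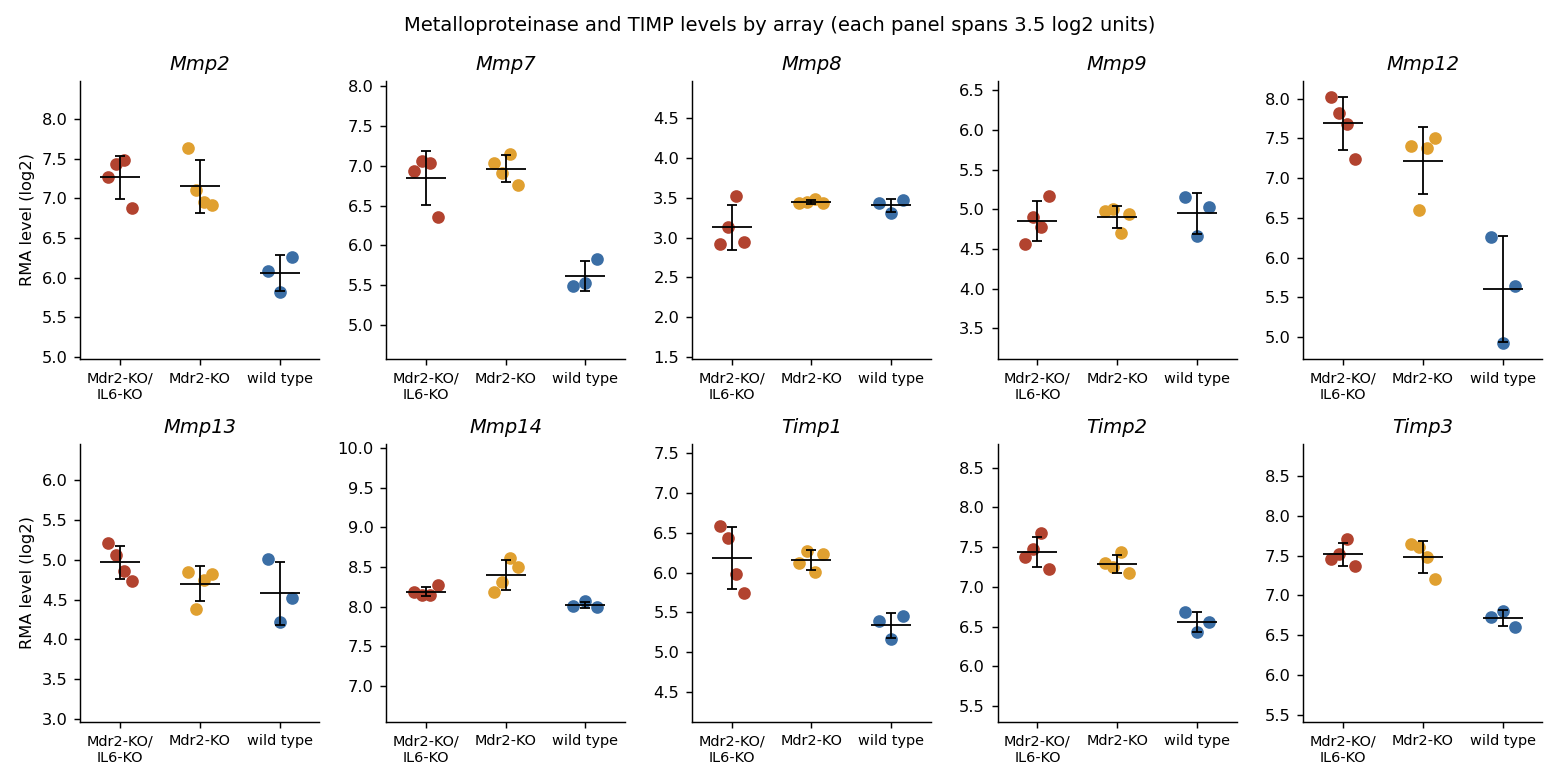
Log2 RMA level of each gene (vertical axis) on the 11 arrays by genotype; points are arrays, and the line and bar are mean and SD. For Mmp2, Mmp7, Mmp12, Mmp14 and the 3 TIMPs all 8 knockout points lie above the 3 wild-type points, while Mmp8, Mmp9 and Mmp13 overlap.

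Macrophage elastase, Mmp12, which degrades elastin and is secreted by macrophages, had the largest rise of the 10 genes in both knockouts. Its log2 level was 8.03, 7.82, 7.69 and 7.24 in Mdr2-KO/IL6-KO livers, 7.40, 6.60, 7.39 and 7.50 in Mdr2-KO livers, and 6.26, 4.92 and 5.64 in wild type. No knockout array overlapped a wild-type array, although the lowest, Mdr2-KO replicate 2, stood only 0.34 above the highest wild-type array. Mmp12 rose 4.24-fold in Mdr2-KO/IL6-KO (2.08 ± 0.29 log2 units, 95% interval 1.47 to 2.70, limma adjusted p = 0.00117). In Mdr2-KO it rose 3.06-fold (1.61 ± 0.29 log2 units, 95% interval 0.996 to 2.23, adjusted p = 0.0128). That put it at rank 7 by size among the 580 genes called higher in Mdr2-KO/IL6-KO and at rank 13 among the 189 in Mdr2-KO. It was also among the most variable genes within a genotype, with a pooled within-group SD of 0.47, at percentile 99.1 of all genes, against a median SD of 0.15. The Mdr2-KO call of Mmp12 was lost without wild type replicate 2, the lowest array (log2 change 1.27, adjusted p = 0.0554), with only the 2 groups compared in the fit (adjusted p = 0.0535) and in the unmoderated model (adjusted p = 0.145).

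The collagenases Mmp13 and Mmp8 did not pass the test. Mmp13, the main interstitial collagenase of rodents, had log2 levels of 5.21, 5.07, 4.86 and 4.74 in Mdr2-KO/IL6-KO, 4.85, 4.39, 4.75 and 4.82 in Mdr2-KO, and 5.01, 4.21 and 4.52 in wild type. All 3 groups overlapped. Its log2 change was 0.39 ± 0.18 SE in Mdr2-KO/IL6-KO (adjusted p = 0.304) and 0.12 ± 0.18 SE in Mdr2-KO (adjusted p = 0.923), with 95% intervals of 0.01 to 0.77 and -0.26 to 0.50. Mmp8, the collagenase stored in neutrophil granules, read 2.92, 3.13, 3.52 and 2.94 in Mdr2-KO/IL6-KO, 3.43, 3.45, 3.49 and 3.43 in Mdr2-KO, and 3.43, 3.31 and 3.47 in wild type. In Mdr2-KO/IL6-KO 3 of the 4 arrays lay below every other array, and replicate 3 lay above them all. The Mmp8 log2 change from wild type was -0.28 ± 0.13 SE in Mdr2-KO/IL6-KO (adjusted p = 0.307) and 0.04 ± 0.13 SE in Mdr2-KO (adjusted p = 0.965). Without Mdr2-KO/IL6-KO replicate 3 the first of these was -0.41 with an adjusted p of 0.0333. These levels are near the low end of the scale, where the tenth percentile of gene means is 3.12, and no detection calls were used here.

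Mmp7, matrilysin, is a small MMP secreted mainly by epithelial cells, bile duct epithelium among them. It read 6.94, 7.07, 7.04 and 6.35 in Mdr2-KO/IL6-KO, 7.04, 6.91, 7.15 and 6.76 in Mdr2-KO, and 5.49, 5.53 and 5.83 in wild type. The 8 knockout arrays were all at least 0.53 above the highest wild-type array. Mmp7 rose 2.35-fold in Mdr2-KO/IL6-KO (1.24 ± 0.16 log2 units, adjusted p = 0.000772) and 2.55-fold in Mdr2-KO (1.35 ± 0.16 log2 units, adjusted p = 0.00108). It stayed called in both comparisons under all 20 alternatives tried, with log2 changes of 1.16 to 1.40 and 1.27 to 1.46.

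The gelatinases differed from each other. Mmp2, the gelatinase of stellate cells and fibroblasts, read 7.26, 7.43, 7.49 and 6.88 in Mdr2-KO/IL6-KO, 7.63, 7.10, 6.95 and 6.92 in Mdr2-KO, and 6.09, 5.82 and 6.27 in wild type. It rose 2.31-fold in Mdr2-KO/IL6-KO (1.21 ± 0.18 log2 units, adjusted p = 0.00214) and 2.13-fold in Mdr2-KO (1.09 ± 0.18 log2 units, adjusted p = 0.00951), with a gap of 0.62 between the lowest knockout and the highest wild-type array. Without wild type replicate 2 its Mdr2-KO change was 0.97 with an adjusted p of 0.0533. Mmp9, the gelatinase of neutrophils and macrophages, read 4.56, 4.91, 4.77 and 5.17 in Mdr2-KO/IL6-KO, 4.97, 5.01, 4.71 and 4.94 in Mdr2-KO, and 5.16, 4.66 and 5.03 in wild type. Its groups overlapped throughout. The Mmp9 log2 change was -0.10 ± 0.15 SE in Mdr2-KO/IL6-KO (95% interval -0.41 to 0.22, adjusted p = 0.853) and -0.04 ± 0.15 SE in Mdr2-KO (95% interval -0.36 to 0.27, adjusted p = 0.973), so a doubling of array signal lies outside both intervals. The mean Mmp9 level of 4.90 was under the median gene level of 5.57, and no detection calls were used.

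Mmp14 is a membrane-anchored MMP that, together with TIMP2, activates the MMP2 proenzyme at the cell surface. Its log2 level was 8.19, 8.15, 8.14 and 8.28 in Mdr2-KO/IL6-KO, 8.19, 8.31, 8.61 and 8.51 in Mdr2-KO, and 8.01, 8.07 and 7.99 in wild type. Every knockout array was above every wild-type array, by as little as 0.08. The log2 change was 0.17 ± 0.10 SE in Mdr2-KO/IL6-KO (adjusted p = 0.504) and 0.38 ± 0.10 SE in Mdr2-KO (adjusted p = 0.109), and neither passed. With arrays weighted by their quality the Mdr2-KO change of 0.39 did pass (adjusted p = 0.0478).

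All 3 inhibitors rose in both knockouts, by amounts close to one another. Timp1, a secreted TIMP made by activated stellate cells, read 6.58, 6.44, 5.99 and 5.75 in Mdr2-KO/IL6-KO, 6.12, 6.27, 6.00 and 6.24 in Mdr2-KO, and 5.39, 5.16 and 5.46 in wild type. It rose 1.81-fold in Mdr2-KO/IL6-KO (0.85 ± 0.17 log2 units, adjusted p = 0.0119) and 1.77-fold in Mdr2-KO (0.82 ± 0.17 log2 units, adjusted p = 0.0314). Its knockout arrays were all above wild type, but the Mdr2-KO/IL6-KO arrays spread widely (SD 0.39, against 0.12 in Mdr2-KO). The Mdr2-KO call of Timp1 was the least firm of the 6: it was lost without any 1 of the 3 wild-type arrays or without Mdr2-KO replicate 1, 2 or 4, at adjusted p = 0.0964, 0.149, 0.0666, 0.0684, 0.0610 and 0.0887. In Mdr2-KO/IL6-KO the Timp1 call was lost without wild type replicate 2 (adjusted p = 0.0620) and in the unmoderated model (adjusted p = 0.0763). The unmoderated model also lost its Mdr2-KO call (adjusted p = 0.183).

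Timp2, which inhibits MMP2 and also presents its proenzyme to Mmp14, read 7.37, 7.48, 7.67 and 7.22 in Mdr2-KO/IL6-KO, 7.30, 7.25, 7.44 and 7.18 in Mdr2-KO, and 6.68, 6.43 and 6.56 in wild type. It rose 1.84-fold in Mdr2-KO/IL6-KO (0.88 ± 0.11 log2 units, adjusted p = 0.000685) and 1.66-fold in Mdr2-KO (0.73 ± 0.11 log2 units, adjusted p = 0.00556). Timp3, which binds to the matrix and also inhibits ADAM17, read 7.46, 7.52, 7.72 and 7.37 in Mdr2-KO/IL6-KO, 7.65, 7.61, 7.49 and 7.20 in Mdr2-KO, and 6.73, 6.81 and 6.60 in wild type. It rose 1.74-fold in Mdr2-KO/IL6-KO (0.80 ± 0.12 log2 units, adjusted p = 0.00178) and 1.71-fold in Mdr2-KO (0.77 ± 0.12 log2 units, adjusted p = 0.00556). For both genes the groups did not overlap with wild type. Their pooled within-group SD, 0.15 for Timp2 and 0.16 for Timp3, was near the median of all genes (percentiles 48.8 and 56.2). The TIMP loci overlap other genes in the RefSeq table, Syn1 at Timp1, Cep295nl at Timp2 and Syn3 at Timp3. None of these was called in a comparison with wild type: the log2 changes in Mdr2-KO/IL6-KO and Mdr2-KO were 0.00 and -0.07 for Syn1, 0.06 and -0.04 for Cep295nl, and 0.29 and 0.37 for Syn3 (adjusted p from 0.160 to 0.994 over the 6 values). Noncoding RNAs that overlap Mmp2 (Gm45472), Mmp7 (AV064505) and Mmp8 (Gm31751) were not analysed here.

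**Figure D2:**
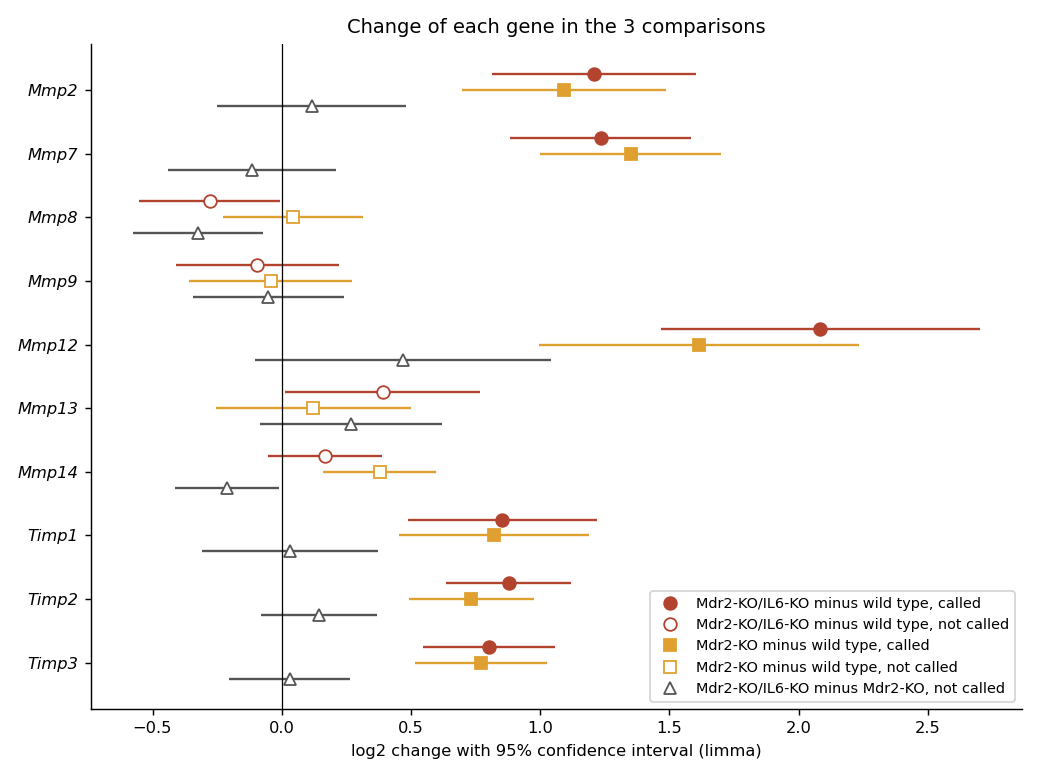
Log2 change of each gene (horizontal axis) with its 95% interval from limma in the 3 comparisons; filled symbols have an adjusted p under 0.05. The same 6 genes are filled in both comparisons with wild type, and no gene is filled between the knockouts.

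Setting the knockouts against each other shows how livers that also lack interleukin 6 differ from those that lack Mdr2 alone. No gene of the 10 was called by limma (adjusted p = 0.9995 for each). Before adjustment 2 genes had a p under 0.05, both lower in Mdr2-KO/IL6-KO: Mmp8 differed by -0.32 ± 0.12 and Mmp14 by -0.21 ± 0.09 log2 units. In this comparison 0.00502% of all genes were called, which is 1 gene, a lower one. The widest difference was that of Mmp12, with a log2 change of 0.47 and a 95% interval of -0.10 to 1.04, so anything from a slightly lower to a 2.06-fold higher level is compatible with these arrays. For the TIMPs the intervals were tighter: -0.31 to 0.37 for Timp1, -0.08 to 0.37 for Timp2 and -0.21 to 0.27 for Timp3. The interval was -0.25 to 0.48 for Mmp2, -0.44 to 0.21 for Mmp7, -0.35 to 0.24 for Mmp9 and -0.08 to 0.62 for Mmp13. In means, 6 genes were higher and 4 lower in Mdr2-KO/IL6-KO, and the arrays of the groups overlapped for all 10, where 2.51% of all genes did not overlap (1.6% higher, 0.908% lower).

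Arrays of 1 genotype differed from one another in the proteases, and some genes differed together. Across the 11 arrays, after each genotype mean was subtracted, Mmp12 and Mmp13 moved nearly in step (Pearson r = 0.97 and Spearman rho = 0.98, n = 11 arrays). Of all tested genes Mmp13 had the highest r with Mmp12. The array with the lowest Mmp12 was also the lowest for Mmp13 in each genotype: Mdr2-KO/IL6-KO replicate 4, Mdr2-KO replicate 2 and wild type replicate 2. The r was 0.96 over the 8 knockout arrays and 0.95 without wild type replicate 2 and Mdr2-KO replicate 2, the arrays farthest out. The genes are direct neighbours in the RefSeq table, at one end of a run that continues through Mmp1b, Mmp3, Mmp1a, Mmp10, Mmp8, Mmp27 and Mmp20 to Mmp7. The arrays share normalization, and each r is a description of these 11 arrays.

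**Figure D3:**
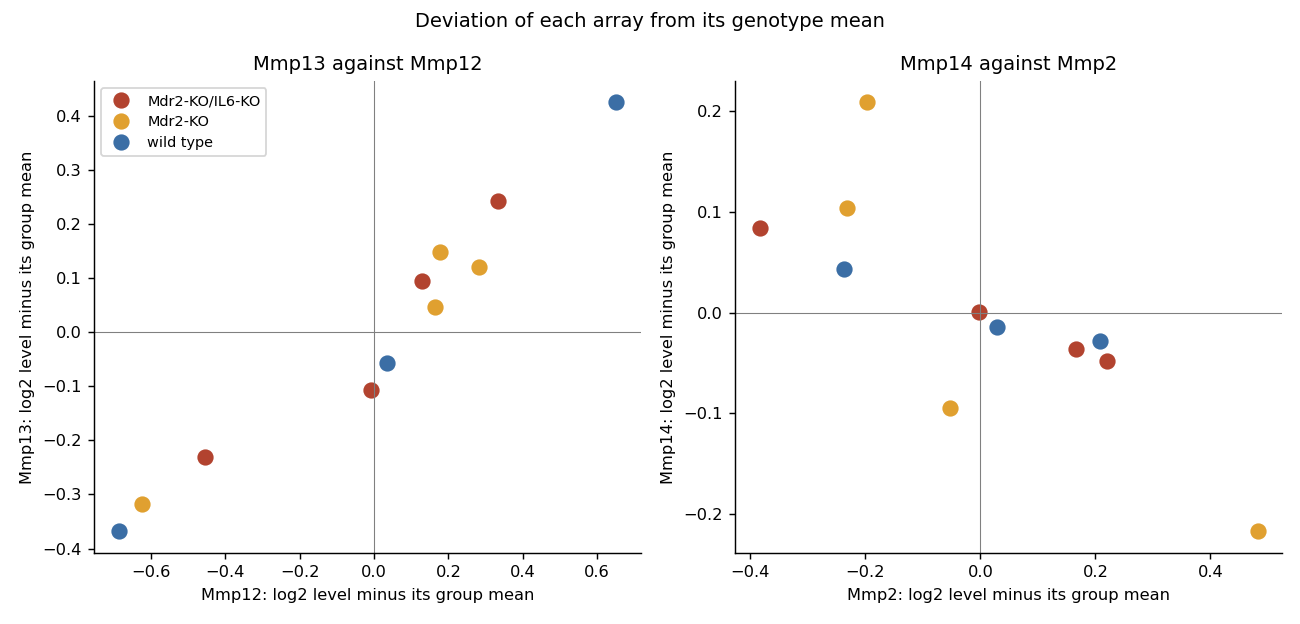
Each point is 1 array, placed by how far it lies from its genotype mean, on the log2 scale, in Mmp12 and Mmp13 (left) and in Mmp2 and Mmp14 (right). Mmp12 and Mmp13 lie along a rising line (r = 0.97), and Mmp2 and Mmp14 along a falling one (r = -0.81) with Mdr2-KO replicate 1 at its end.

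Over the 45 pairs of the 10 genes r ran from -0.81 to 0.97 with a median of 0.08, so most pairs did not follow each other. Mmp2 and its activator Mmp14 had the lowest value, -0.81, which was -0.68 without Mdr2-KO replicate 1 and Mdr2-KO/IL6-KO replicate 4. Mdr2-KO replicate 1 had the highest Mmp2 (7.63) and the lowest Mmp14 of its group (8.19). Mmp8 and Timp2 followed each other with r = 0.81, Mmp7 and Timp2 with r = 0.70 (0.40 without the 2 arrays farthest out), and Mmp2 and Mmp7 with r = 0.67.

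Looking over all tested genes, the 3 whose deviations were most like those of each called gene were picked, with n = 11 arrays and the highest r of many. For Mmp12 they were Mmp13, the beta-glucan receptor Clec7a of myeloid cells (r = 0.96) and the matrix proteoglycan Lum (r = 0.95). Lum itself rose in both knockouts, 3.97-fold in Mdr2-KO/IL6-KO and 3.45-fold in Mdr2-KO. Spearman rho with Mmp12 was 0.90 for Clec7a and 0.77 for Lum. Without wild type replicate 2 and Mdr2-KO replicate 2, r was 0.89 for each. For Mmp2 they were Gm15348 (r = 0.94), the latent TGF-beta binding protein Ltbp1 (0.92) and Pmepa1 (0.91); in Mdr2-KO/IL6-KO Pmepa1 rose (log2 change 0.61, adjusted p = 0.00455) and Gm15348 fell (-0.43, adjusted p = 0.0498), while none of the 3 was called in Mdr2-KO. For Timp2 they were Atf6b (0.94), Syt14 (0.94) and Ltbp2 (0.92), another protein of the Ltbp family, which rose in both knockouts (log2 changes 0.59 and 0.51, adjusted p = 0.00574 and 0.0290). For Mmp7 they were Gm16008 (0.97), Nexn (0.95) and Gabra4 (0.93), for Timp1 Spx (0.96), Klhl7 (0.96) and Gm32061 (0.94), and for Timp3 Tacc1 (0.96), Bdkrb1 (0.96) and Cd200r2 (0.95). None of the genes in this last sentence was called in a comparison with wild type.

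Of the wider family, 15 of the 16 other MMP genes listed were measured, and none was called in either comparison with wild type. Their mean log2 level was 4.58 in Mdr2-KO/IL6-KO, 4.55 in Mdr2-KO and 4.61 in wild type. The median gene level was 5.57. Mmp19 was an exception, at 8.27, 8.21 and 8.28 in the same order. No detection calls were used, so the absence of calls at such low levels does not show that the RNA was unchanged. At an unadjusted p under 0.05 there were 0 in Mdr2-KO/IL6-KO and 1 in Mdr2-KO, Mmp27 (-0.42 ± 0.17 log2 units, adjusted p = 0.434). The median log2 change of these 15 genes was -0.01 in Mdr2-KO/IL6-KO and -0.04 in Mdr2-KO, near the 0.00 and -0.01 of all genes. Of the cluster shared with Mmp12 and Mmp7, Mmp3, Mmp10, Mmp1a, Mmp1b, Mmp20 and Mmp27 were in this group. Of 4 other inhibitors, 1 was called: Pzp, a broad protease inhibitor of the alpha-2-macroglobulin family secreted by hepatocytes, averaged 12.43 ± 0.04 in Mdr2-KO/IL6-KO, 12.58 ± 0.06 in Mdr2-KO and 12.78 ± 0.03 in wild type (SD, n = 4, 4 and 3). It fell in Mdr2-KO/IL6-KO (-0.34 ± 0.07 log2 units, adjusted p = 0.0188) and was not called in Mdr2-KO (log2 change -0.20, adjusted p = 0.332). Reck was lower in both at an unadjusted p under 0.05 without being called (log2 changes -0.32 and -0.28, limma adjusted p = 0.213 and 0.499). Timp4, at 0.25 and 0.16, and A2m, at -0.11 and -0.04, were not called either.

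Upstream in the cascade, 1 of 7 measured genes of the plasmin system and proprotein activators rose in each knockout. This was Plat, tissue plasminogen activator, which makes plasmin, itself an activator of several MMPs. Plat averaged 6.21 ± 0.12 in Mdr2-KO/IL6-KO, 5.90 ± 0.14 in Mdr2-KO and 5.05 ± 0.28 in wild type (SD, n = 4, 4 and 3). It rose 2.24-fold in Mdr2-KO/IL6-KO (adjusted p = 0.000222) and 1.80-fold in Mdr2-KO (adjusted p = 0.00531). Between the knockouts its arrays did not overlap (1.24-fold higher in Mdr2-KO/IL6-KO), and the difference was not called (adjusted p = 0.9995).

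Among 15 measured ADAM and ADAMTS proteases 2 rose in each knockout. The aggrecanase Adamts5 rose 1.79-fold in Mdr2-KO/IL6-KO (adjusted p = 0.00922) and 1.67-fold in Mdr2-KO (adjusted p = 0.0400), and Adamts9, which cleaves versican and aggrecan, rose 1.43-fold in each (adjusted p = 0.00390 and 0.00963). The median of the 15 was 0.07 in Mdr2-KO/IL6-KO and -0.02 in Mdr2-KO. Of 10 matrix protein genes listed, 7 rose in Mdr2-KO/IL6-KO and 3 in Mdr2-KO, with medians of 0.49 and 0.28. Fn1 was lower in Mdr2-KO/IL6-KO and in Mdr2-KO without being called (log2 changes -0.28 and -0.19, limma adjusted p = 0.126 and 0.537). Col1a1 rose 2.37-fold and 2.03-fold in that order, Col1a2 2.22-fold and 1.92-fold, and Col3a1 1.96-fold and 1.82-fold, all chains of fibrillar collagen. The laminin chain Lamc1 rose 1.43-fold in Mdr2-KO/IL6-KO (adjusted p = 0.00447) and was 1.24-fold higher without passing in Mdr2-KO (adjusted p = 0.141). The lists were drawn up with earlier results of these data known, and their counts describe these genes only.

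**Figure D4:**
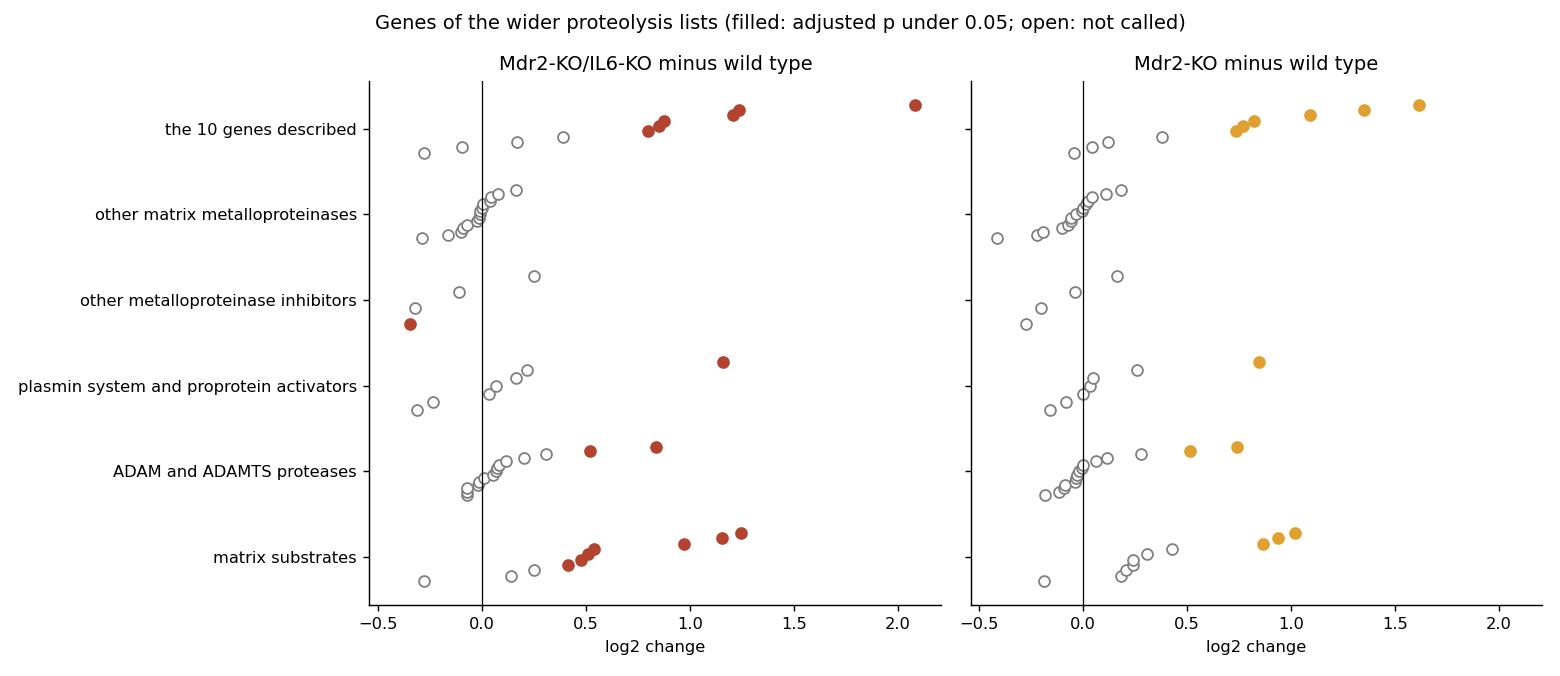
Log2 change against wild type (horizontal axis) of the 10 genes and of 5 lists around them, in Mdr2-KO/IL6-KO (left) and Mdr2-KO (right); filled points have an adjusted p under 0.05. All 15 other MMPs are open in both panels, and filled points lie to the right of 0 except Pzp.

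Some markers of cell types that can hold these genes moved beside them and others did not, and their part in the changes was not tested. Values are the mean log2 level over a list on each array, and every listed marker is given by count. Bile duct cell markers, with 5 of 7 called higher in each knockout, ran from 6.20 to 6.55 in Mdr2-KO/IL6-KO, from 6.19 to 6.50 in Mdr2-KO and from 5.18 to 5.35 in wild type; their median log2 change was 1.22 in Mdr2-KO/IL6-KO and 1.29 in Mdr2-KO. Stellate cell and myofibroblast markers, with 3 and 2 of 10 called higher, ran from 7.07 to 7.23 in Mdr2-KO/IL6-KO, from 6.98 to 7.10 in Mdr2-KO and from 6.67 to 6.86 in wild type. Their median log2 change was 0.19 in Mdr2-KO/IL6-KO and 0.12 in Mdr2-KO. Lum and Pdgfrb rose in both knockouts and Tagln in Mdr2-KO/IL6-KO. The other 7 were not called, with log2 changes from -0.10 to 0.29 in Mdr2-KO/IL6-KO and from -0.21 to 0.19 in Mdr2-KO, the myofibroblast actin Acta2 at 0.05 and 0.14 among them. The mean of each of both lists was higher on all 8 knockout arrays than on any wild-type array. The same held for the scar-associated macrophage markers described below. In the stellate list Lum had the largest log2 change, 1.99 in Mdr2-KO/IL6-KO and 1.79 in Mdr2-KO. Pdgfrb came next, at 0.83 and 0.72. The mean of that list was not computed without Lum.

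For macrophages the lists differed. General and Kupffer cell markers, with 0 of 8 called in either comparison and 0 and 1 at an unadjusted p under 0.05, ran from 7.39 to 7.68 in Mdr2-KO/IL6-KO, from 7.27 to 7.83 in Mdr2-KO and from 6.98 to 8.17 in wild type. They overlapped throughout, and within genotypes Mmp12 had an r of -0.08 with their mean (n = 11 arrays), against 0.85 with that of the stellate list, which holds Lum, 0.63 with the scar-associated list, 0.60 with the neutrophil list, 0.46 with the bile duct list and -0.18 with the hepatocyte list. Markers of recruited and scar-associated macrophages, 5 of 7 measured, had 2 called higher in each knockout and ran from 6.37 to 6.93 in Mdr2-KO/IL6-KO, from 6.22 to 6.76 in Mdr2-KO and from 5.88 to 6.04 in wild type. Gpnmb rose 2.97-fold and 2.26-fold and Cd9 2.13-fold and 1.77-fold, whereas Trem2 was not called (log2 change 0.12 and -0.10). Neutrophil markers, with 0 of 10 called and 3 and 1 at an unadjusted p under 0.05, ran from 4.16 to 4.33 in Mdr2-KO/IL6-KO, from 4.27 to 4.50 in Mdr2-KO and from 4.33 to 4.60 in wild type, beside the uncalled Mmp8 and Mmp9. Hepatocyte markers, with 0 of 5 called and 1 and 0 at an unadjusted p under 0.05, ran from 12.57 to 12.70, 12.54 to 12.67 and 12.64 to 12.71 in the same order, so the defining markers of the labelled tissue were present. RMA levels have no 0, and no marker of these lists was under the tenth percentile of gene means in both the Mdr2-KO/IL6-KO and the wild-type group.

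**Figure D5:**
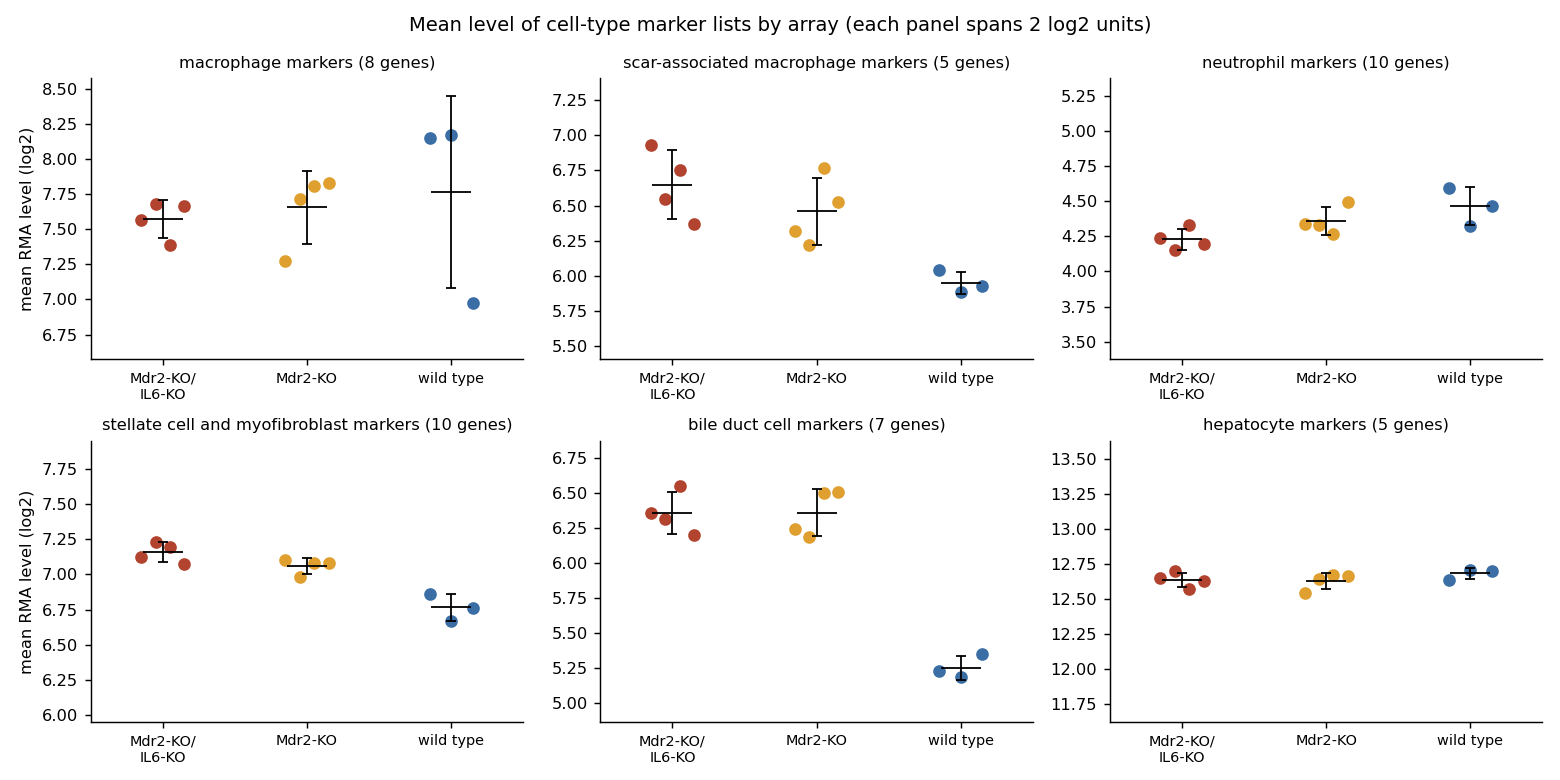
Mean log2 RMA level (vertical axis) of 6 cell-type marker lists on each of the 11 arrays by genotype; points are arrays, and the line and bar are mean and SD. Bile duct, stellate and scar-associated macrophage lists are above wild type on all 8 knockout arrays, while general macrophage markers overlap and are widest in wild type, from 6.98 to 8.17.

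Facts of the series that touch these values are few. Abcb4 averaged 8.09 ± 0.20 in Mdr2-KO/IL6-KO, 7.74 ± 0.19 in Mdr2-KO and 9.83 ± 0.10 in wild type (SD, n = 4, 4 and 3), lower on every knockout array than in wild type. The labels name the knockout and give no RNA level, and the remaining Abcb4 signal was above the median gene level of 5.57. Il6 lay between 1.62 and 2.09 on all 11 arrays, which checks nothing. Array medians ran from 5.09 to 5.23. Mdr2-KO replicates 2 and 3 stood farthest apart on the second principal component of all genes (19.6% of the variance), and replicate 2 had the lowest Mmp12 of its group. Without both, 6 of the 10 genes were called higher in Mdr2-KO/IL6-KO, and 5 in Mdr2-KO, with Timp1 the one lost (adjusted p = 0.120).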

How the data were processed

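Total RNA of 11 liver samples was measured on 11 Affymetrix arrays. The authors deposited 1 table of log2 values for 35557 probe sets. RMA and Partek are named in the submitters' processing notes, with versions and settings not given in the sources used here. These log2 levels were used as deposited. Probe sets were named by the platform annotation, with symbols updated by Entrez identifier against RefSeq, where 19856 of the genes matched. Where a gene had several probe sets with its symbol alone (999 genes), the one with the highest mean was kept, leaving 19938 genes. One limma 3.58.1 model (R 4.3.3) with a mean per genotype gave 3 contrasts, two-sided, with Benjamini-Hochberg adjustment over all genes, called under 0.05. Errors are the SE of the fit or the SD over arrays. The script was tested on simulated data. Alternatives were 8 other settings, leaving out each of 11 arrays, and, added after seeing the data, leaving out Mdr2-KO replicates 2 and 3.

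All 10 genes are named. From each pathway list up to 4 called genes with the lowest p are named, or else the 1 with the lowest p. Uncalled genes such as Mmp19, Reck and Fn1 are named besides, after their values were seen. For each called gene of the 10, the 3 genes with the highest Pearson r after genotype means were subtracted are named. Marker genes given as examples were chosen after their values were seen. The genes, lists and tests were chosen with earlier results of these data known. Replicate numbers follow sample order and pair nothing. The labels do not tie each array to a mouse of its own. The p-values then measure only how these samples vary, which may be technical, and the number of arrays limits the precision.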

Additional observations from a re-analysis of the deposited data

Results flagged for a closer look

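Mmp12 in Mdr2-KO replicate 2 stood apart from its group. Its log2 level was 6.60, against 7.39 to 7.50 in the other 3 Mdr2-KO arrays, and the gap to the nearest was 0.869 of the whole range of the group. It was the 1 such array among 20 sets of 4 arrays examined, 10 genes in each knockout group, where chance gives about 1 in 20. The same array had the lowest Mmp13 of its group, 4.39, and was at one end of the second principal component. Without it the Mdr2-KO change of Mmp12 remained called.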

How the results depend on the processing

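Over the 10 genes, 6 were called in Mdr2-KO against wild type. The count was 1 in the unmoderated model (Mmp7), 5 with only the 2 groups compared (Mmp12 lost) and 7 with array weights (Mmp14 gained). It was 3 to 6 when 1 array was left out, with the 3 reached without wild type replicate 2, and 5 or 6 under the other settings. In Mdr2-KO/IL6-KO against wild type the count of 6 became 5 to 7 over all alternatives, and between the knockouts 0 were called under every alternative. Quantile normalization and median centring left all 3 counts as they were. The cause of the lost calls was not tested. The count over all genes in Mdr2-KO, 252, was 43 unmoderated, 138 with only the 2 groups compared, 410 with array weights and 148 to 323 with 1 array left out; that in Mdr2-KO/IL6-KO, 836, was 496 unmoderated, 1341 with array weights and 464 to 989 with 1 array left out; that between the knockouts, 1, was 0 to 6. No called change of a gene turned sign. Changes near 0 did when 1 array was left out: against wild type in Mdr2-KO, Mmp8 ranged from -0.0031 to 0.0775, Mmp9 from -0.19 to 0.0613 and Mmp13 from -0.0618 to 0.33, and Mmp9 in Mdr2-KO/IL6-KO from -0.24 to 0.0085. Between the knockouts Mmp7 ranged from -0.19 to 0.0496, Mmp9 from -0.16 to 0.0438, Timp1 from -0.10 to 0.18 and Timp3 from -0.0643 to 0.0847. Without Mdr2-KO replicates 2 and 3, Mmp9 in Mdr2-KO against wild type was 0.0079 and Mmp2 between the knockouts -0.0091. No paired analysis was possible because the labels carry no replicate number shared between groups. Probe sets brighter than the median gene left out Mmp8, Mmp9 and Mmp13, which gave no value there.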
